A study of Mus musculus with 35 samples.

Results

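Lungs of Cav1-KO mice kept at 10% oxygen for 6 weeks were compared with lungs of Cav1-KO mice kept at room air. The comparison used 11 of the 35 sequenced libraries, which were the 3 female and 3 male hypoxic and the 2 female and 3 male normoxic libraries whose labels give the Cav1-KO genotype. Each library was made from the whole lung of 1 adult mouse at least 3 months old. Cav1-KO mice carry the Cav1(tm1Mls/)J allele in every tissue, so normoxic and hypoxic animals alike lacked caveolin-1. Hypoxia was made by displacing oxygen with nitrogen in a ventilated chamber. Some Cav1-KO animals of the study's survival experiment died in such a chamber, so lungs collected at the end come from animals that had lived through the exposure. The other libraries used beside this comparison came from Control mice, which are wild type (B6/129SJ2), and from Cav1-RC mice, which are described as knockouts that express caveolin-1 in endothelium only. They had been housed for the same 6 weeks at the same 2 oxygen levels.

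Oxygen was not the only difference between the 2 sets of Cav1-KO libraries. The supplement of the study lists the animals used for western blots, and 12 of the 34 libraries with a group come from animals on that list. All 6 hypoxic Cav1-KO libraries are on it and 0 of the 5 normoxic ones are. The labels give no reason for this split and the same batch entry for every library, so the list is used here only as a second label that coincides with oxygen in Cav1-KO. In these 11 libraries alone the effects of oxygen and of whatever goes with the list cannot be told apart. In 3 female groups (Control normoxia, Control hypoxia and Cav1-RC normoxia) 1 library is on the list and the others are not. The difference within these groups estimated a list term, and a fit over all 34 libraries with that term gave a second value for hypoxia in Cav1-KO. The list term rests on 3 listed and 5 other libraries, all female and none of them Cav1-KO, and its use for Cav1-KO and for males assumes that it acts alike there. Values from the first fit are called without and those from the second with the list term.

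Caveolin-1 is the main coat protein of caveolae, the flask-shaped invaginations of the plasma membrane that are dense in lung endothelium, smooth muscle and alveolar type I cells, and it holds endothelial nitric oxide synthase in an inhibited state. Chronic hypoxia narrows and remodels the small pulmonary arteries, thickens their muscle and matrix, and raises red cell production through erythropoietin. Cells sense low oxygen through the prolyl hydroxylases, which mark the HIF-alpha proteins for destruction when oxygen is present, so HIF targets for glycolysis, glucose uptake and vessel growth rise when oxygen falls.

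The 11 libraries held 14342791 to 27366004 counts on genes (median 18122214), so that the floor of 3 counts, the most that a gene with no count can be said to have, lay at 0.11 to 0.209 CPM, the counts scaled to library size. Cav1 itself was at 1.61 to 4 CPM in the 11 Cav1-KO libraries and at 989 to 1180 CPM in the 6 male Control libraries. In the 11 Cav1-RC libraries it was at 1.48 to 6.56 CPM, which overlaps the Cav1-KO range, and 2 of them, both hypoxic (6.56 and 4.71 CPM), lay above it. None came near the level in Control lung. Cav1 did not change with hypoxia in Cav1-KO beyond the spread (log2 fold change 0.09 ± 0.24 (SE), adjusted p = 0.75). Mitochondrial transcripts took 3.742% to 4.862% of the counts in hypoxic Cav1-KO lung and 1.58% to 2.148% in normoxic, and Scgb1a1, the main secretory protein of club cells, took 3.469% to 5.343% against 1.31% to 1.658%. The 2 ranges do not overlap for either quantity, and their part in the other differences was not tested. One hypoxic library, female Cav1-KO hypoxia replicate 2, held both Xist (714 CPM) and Y chromosome transcripts (17.5 CPM summed), and 1 of the male Control hypoxia libraries and 2 of the male Cav1-RC normoxia libraries held Xist and at most 1.07 CPM of Y chromosome transcripts. Groups follow the labels, and counts without these libraries are given where they differ. Markers of alveolar, airway, endothelial, smooth muscle and blood cell types were all detected, and of the genes on the lists Myod1, Bmp10, Rpl10l and 8 histone genes were at 0 in every Cav1-KO library.

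Without the list term, 1698 genes were higher and 1564 lower in hypoxic than in normoxic Cav1-KO lung, which is 17.6% of the 18487 genes tested (9.18% higher, 8.46% lower). Calls needed a change of more than 1 on the log2 scale in either direction and an adjusted p under 0.05, and were made with edgeR's quasi-likelihood test. For 3958 genes (21.4%) every hypoxic library lay above every normoxic one and for 3749 genes (20.3%) below, so libraries that do not overlap are common here and say little about a single gene. With the list term, 69 genes were higher and 69 lower, 0.695% of 19870 genes tested (0.347% in each direction), a total that moved to between 36 (without female Control normoxia replicate 1) and 252 (without male Cav1-KO hypoxia replicate 2) when single libraries were left out. Between the listed and the other libraries of the same 3 female groups, where oxygen, sex and genotype are equal, 1146 genes were higher and 1076 lower (12.4% of 17917; 6.4% higher, 6.01% lower). These libraries are not among the 11 of Cav1-KO. Of the 17610 genes tested in both, 1373 were called in the same direction, 46.9% of the 2926 called for hypoxia in Cav1-KO and 63.3% of the 2169 called for the list, and 5 in opposite directions. Across these genes, which are not independent replicates, the 2 sets of log2 fold changes had a Pearson correlation of 0.772 and a Spearman correlation of 0.804.

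Hypoxia could also be read where the list does not vary, in the 14 libraries off the list of female Control, female Cav1-RC and male Cav1-RC mice. There 181 genes were higher and 220 lower with hypoxia (2.08% of 19258; 0.94% higher, 1.14% lower). The total was between 220 (without female Control hypoxia replicate 2) and 727 (without female Cav1-RC hypoxia replicate 1) when single libraries were left out, and 152 without the libraries whose Xist and Y chromosome transcripts go against the label. Of the 18064 genes tested in both, 138 were called in the same direction as in Cav1-KO without the list term, 4.54% of the 3041 Cav1-KO calls and 37.8% of the 365 calls off the list, and 22 in the opposite direction. The Pearson correlation across genes was 0.17. Gene length went with the changes: across protein-coding genes the Spearman correlation of length with the log2 fold change was -0.251 without the list term, -0.343 for listed against other libraries and 0.111 with the list term. For hypoxia off the list, where the list does not vary, it was -0.229. The median length was 2516 bases for genes higher in hypoxic Cav1-KO lung without the list term and 4738 bases for genes lower, against 4251 over all. The part of length in single results was not tested.

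**Figure D1:**
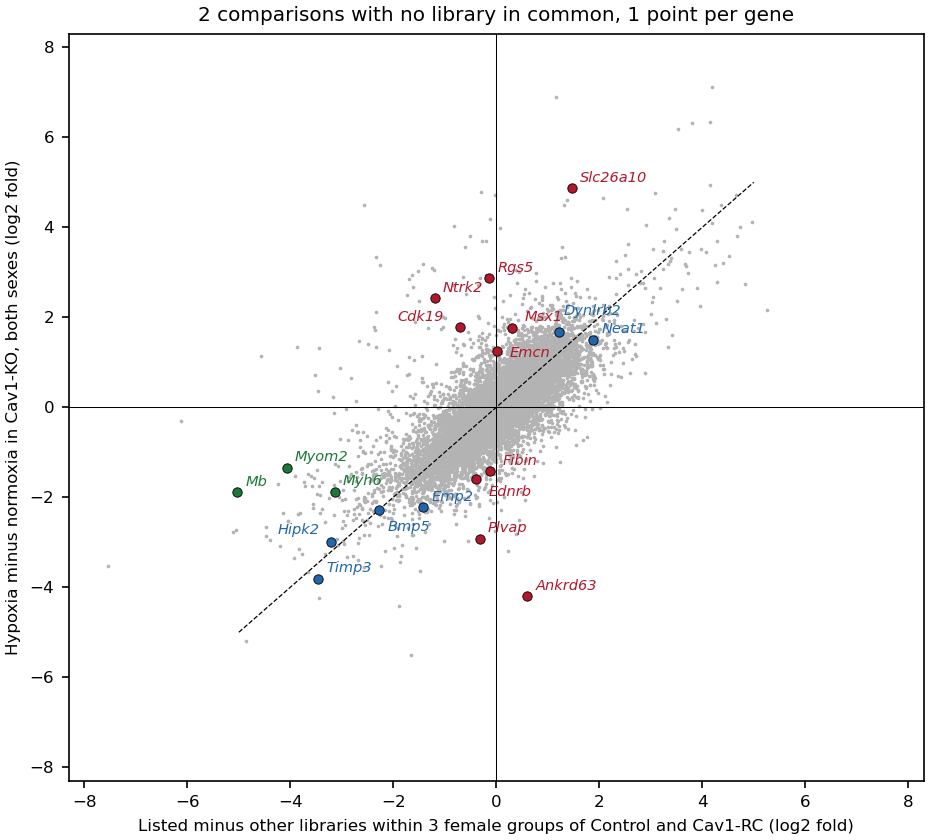
Each grey point is a gene, with the log2 fold change between listed and other libraries of the same female Control and Cav1-RC groups on the x axis and that between hypoxic and normoxic Cav1-KO libraries, both sexes, without the list term, on the y axis. On the dashed line both are equal. Genes in red were called with the list term. Those in blue changed in the same direction in both, some near the line (Hipk2 at -3.20 and -2.99, Bmp5 at -2.28 and -2.29) and others, such as Emp2, farther from it. Those in green, cardiac muscle genes, were lower in listed libraries by more than in hypoxic Cav1-KO lung.

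Among the genes that were called with the list term and whose libraries did not overlap, those known from vessel wall cells are given first. Plvap, which forms the diaphragms that span caveolae and fenestrae of endothelium (ENSMUSG00000034845, mm10 chromosome 8 from 71497765 to 71511752), was at 659 and 657 CPM in the normoxic females and at 622, 558 and 529 CPM in the normoxic males. In hypoxia it was at 72.4, 95.6 and 76.7 CPM in females and at 43.6, 157 and 49.2 CPM in males. All 6 hypoxic libraries lay far below all normoxic ones, with male replicate 2 the highest of them. Plvap fell by 2.92 ± 0.29 (SE) on the log2 scale without the list term (adjusted p = 6.18e-06) and by 2.60 ± 0.34 with it (adjusted p = 0.000174). Its log2 fold change between listed and other libraries was -0.32 (adjusted p = 0.243), and it fell with hypoxia off the list too (-2.01, adjusted p = 1.8e-06). Male Control lung had 529 ± 42.8 CPM (SD, n = 3) in normoxia and 109, 85.3 and 108 CPM in hypoxia, and the Cav1-KO minus Control difference of the change, -0.41 ± 0.51, did not pass the test (adjusted p = 0.671). The calls of Plvap, Rgs5, Slc26a10, Ednrb, Msx1, Palmd and Tmem178 with the list term were kept under all 30 alternative settings, 19 of which left out 1 of the 11 Cav1-KO libraries or of the 8 libraries behind the list term. The other libraries of that fit were not left out in turn. A setting that drops the fold threshold is among the 30 and keeps any call by construction.

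Rgs5, a brake on G protein signaling that marks pericytes (ENSMUSG00000026678, chromosome 1 from 169655501 to 169695813), had 14.7 and 16.1 CPM in normoxic females and 161, 180 and 239 CPM in hypoxic females. In males it had 10.4, 24.8 and 25.2 CPM in normoxia and 89.9, 66 and 110 CPM in hypoxia. The hypoxic libraries were all above the normoxic ones, and the hypoxic females above the hypoxic males. Rgs5 rose by 2.87 ± 0.23 without the list term (adjusted p = 1.55e-06) and by 3.01 ± 0.38 with it (adjusted p = 0.000138), with -0.14 between listed and other libraries and 2.68 off the list. Of 25 genes of the pericyte and smooth muscle list, 3 were higher and 2 lower without the list term, near the 9.18% and 8.46% of all genes (median 0.22, against 0.03 over all), and Rgs5 alone was called with it. The other 2 that rose were Higd1b, a pericyte marker (1.08, adjusted p = 6.5e-06; 0.50 with the term), and Myl9, a myosin light chain of smooth muscle (1.06, adjusted p = 5.55e-06; 0.41 with the term), and in both every hypoxic library was above every normoxic one. Itga8 and Myocd were lower (-1.54 and -1.47; -0.37 and 0.89 with the term). For the list as a whole, the summed level of the list was 2620 to 3000 CPM in hypoxia and 2660 to 3110 CPM in normoxia, which overlap. In whole lung, fewer or more cells of a type and less or more RNA per cell cannot be told apart.

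Ednrb, the endothelin B receptor, which clears endothelin and relaxes vessels from the endothelial side (chromosome 14 from 103814625 to 103844402), was at 92.8 and 103 CPM in normoxic females and 120, 120 and 119 CPM in normoxic males. In hypoxia it was at 37.8, 30.6 and 27.3 CPM in females and at 37.6, 52 and 34.7 CPM in males. No hypoxic library reached the normoxic range. Ednrb fell by 1.60 ± 0.11 without (adjusted p = 5.55e-07) and by 1.21 ± 0.20 with the list term (adjusted p = 0.00223), and by 1.22 off the list (adjusted p = 0.000186). The ligand Edn1 had a log2 fold change of 0.41 (adjusted p = 0.00656), which did not reach the fold threshold, and 0.04 with the list term.

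Slc26a10, Ntrk2 and Cdk19 rose in both fits. Slc26a10, a member of an anion transporter family, had 2.6 and 2.47 CPM in normoxic females and 4.97, 5.8 and 7.06 CPM in normoxic males. In hypoxia it had 81.1, 92.7 and 126 CPM in females and 201, 43.7 and 158 CPM in males. Every hypoxic library was well above every normoxic one, and male replicate 2 was again the least changed. The rise was 4.87 ± 0.39 without and 3.38 ± 0.48 with the list term (adjusted p = 0.000465), since listed libraries were higher too (1.47, adjusted p = 0.000939). Ntrk2, the receptor of brain-derived neurotrophic factor, was at 27.8 to 44.6 CPM in normoxic and 128 to 269 CPM in hypoxic Cav1-KO lung. Listed libraries were lower in Ntrk2 (-1.20, adjusted p = 0.0177), so its rise was larger with the list term (3.63 ± 0.50, adjusted p = 0.000369) than without it (2.43 ± 0.21, adjusted p = 2.58e-06). Cdk19, a kinase of the Mediator complex, went from 127 to 156 CPM in normoxia to 336 to 631 CPM in hypoxia, a rise of 1.78 ± 0.18 without and 2.50 ± 0.32 with the list term (adjusted p = 0.000138). Male Control lung had 10.6 to 20.9 CPM of Ntrk2 in normoxia and 164 to 294 CPM in hypoxia, and the rise was smaller in male Cav1-KO than in male Control (difference -1.62 ± 0.41, adjusted p = 0.0489), a call that 7 of 22 alternative settings kept.

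Further genes were called with the list term. Msx1, a homeobox factor of the BMP response, had 4.88 to 9.12 CPM in normoxia and 18.3 to 30 CPM in hypoxia (1.77 ± 0.16 without and 1.47 ± 0.24 with the list term, adjusted p = 0.0016). Palmd, a cell cortex protein, had 66.9 to 83 CPM and at least 131 CPM, with a median of 203 CPM (1.35 ± 0.13 and 1.24 ± 0.20, adjusted p = 0.00211 with the term). The hypoxic and normoxic ranges of both are well apart. Prox1, the master factor of lymphatic endothelium, rose by 1.74 ± 0.21 with the list term (adjusted p = 0.000126) but had only 8.08 to 10 CPM in normoxia and 10.1 to 15.9 CPM in hypoxia, where its fold change without the term was 0.52. Mmrn1, another lymphatic gene, had 34.8 to 43.2 CPM and 43.3 to 68.4 CPM (0.50 without and 1.12 with the term, adjusted p = 0.0016). For both, listed libraries were lower (-1.22 and -0.63), and the larger value comes from subtracting that difference. Lyve1, a receptor of lymphatic endothelium, went the other way without the term (-1.70, adjusted p = 1.79e-05) and was at -0.97 with it (adjusted p = 0.0686).

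Among the genes that fell with the list term, Ankrd63 had 8.72 to 18.4 CPM in normoxic Cav1-KO lung. In hypoxia it had 0.23, 0.376 and 0.0899 CPM in females and 1.08, 7.7 and 0.306 CPM in males. Male replicate 2 lay just below the lowest normoxic library and the other 5 far below, 1 of them under the floor of 3 counts. Its log2 fold change was -4.20 ± 0.63 without and -4.78 ± 0.79 with the list term (adjusted p = 0.00211). Tmem178 fell by 1.46 ± 0.10 and 1.63 ± 0.18 (adjusted p = 3.09e-05 with the term), from 14.7 to 18.3 CPM in normoxia to 5.03 to 7.15 CPM in hypoxia, and in male Control lung its ranges overlapped (15.8 to 25.3 CPM in normoxia, 16 to 21.3 CPM in hypoxia; difference between genotypes -1.29 ± 0.23, adjusted p = 0.0191). Off the list its change was -0.24 (adjusted p = 0.159). Rflna, which acts on filamin, fell by 1.37 without and 1.91 with the list term (adjusted p = 0.000465 with the term), and it fell with hypoxia off the list (-1.23, adjusted p = 0.00516).

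**Figure D2:**
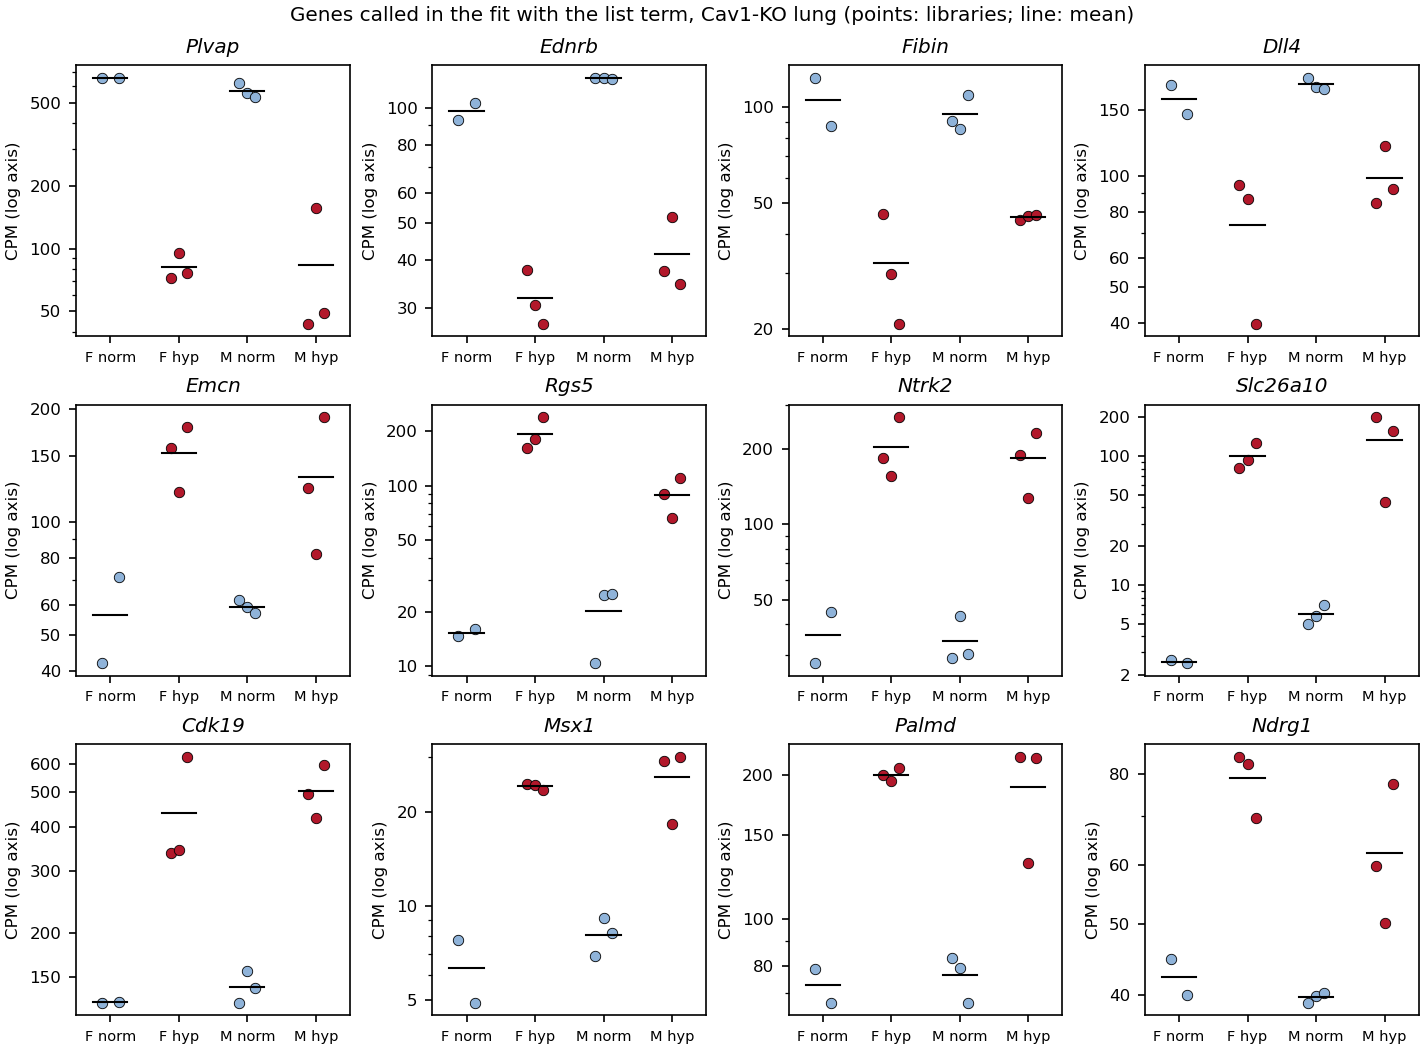
CPM (log axis) of 12 genes that were called in the fit with the list term, in the 11 Cav1-KO libraries by sex (F, M) and oxygen (norm, hyp). Blue points are normoxic and red points hypoxic libraries, and lines are group means. In all 12 panels the hypoxic libraries lie on one side of the normoxic ones, with the widest gaps for Slc26a10, Plvap and Ntrk2.

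The 250 bases upstream of the start of some of these genes are shown because they rose or fell together in a hypoxia experiment, and the core of the hypoxia response element is a short sequence that can be looked for. Sequences are from RefSeq on GRCm38.p6, the build of mm10, 5′ to 3′ on the strand of the gene, with the cores ACGTG and GCGTG, searched on both strands, in capitals. An ACGTG that is part of the E-box CACGTG is counted with the cores.
Rgs5, chr1:169655251-169655500, plus strand: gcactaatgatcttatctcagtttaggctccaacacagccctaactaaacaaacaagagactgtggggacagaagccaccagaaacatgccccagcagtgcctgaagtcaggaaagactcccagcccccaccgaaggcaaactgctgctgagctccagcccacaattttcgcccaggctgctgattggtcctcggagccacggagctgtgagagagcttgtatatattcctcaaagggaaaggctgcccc
Ednrb, chr14:103843702-103843951, minus strand: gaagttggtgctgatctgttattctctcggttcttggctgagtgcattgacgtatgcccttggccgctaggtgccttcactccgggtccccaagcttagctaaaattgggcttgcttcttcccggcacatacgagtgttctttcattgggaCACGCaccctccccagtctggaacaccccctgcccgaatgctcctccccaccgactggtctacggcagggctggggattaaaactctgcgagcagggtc
Ntrk2, chr13:58806319-58806568, plus strand: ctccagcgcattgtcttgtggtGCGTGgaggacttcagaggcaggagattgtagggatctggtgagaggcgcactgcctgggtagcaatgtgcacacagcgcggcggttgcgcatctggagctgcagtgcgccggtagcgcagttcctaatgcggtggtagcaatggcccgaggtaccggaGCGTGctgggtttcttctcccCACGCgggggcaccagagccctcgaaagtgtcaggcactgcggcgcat
The window of Rgs5 held no core, that of Ednrb held 1 GCGTG and that of Ntrk2 held 3 GCGTG. Of the 11 windows of the most significant genes with the list term, 6 (54.5%) held a core, in each case GCGTG, against 38.6% of the 32851 windows of all genes. A match is a matter of letters only and does not mark a bound site.

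For the hydroxylase pathway itself, few transcripts changed past the thresholds. Of the 9 genes of the HIF pathway list, 1 was lower without the list term and 0 were called with it. The gene called was Egln2, the prolyl hydroxylase 1, which fell by 1.31 ± 0.10 (adjusted p = 9.46e-07) from 91.3 to 106 CPM in normoxia to 33.3 to 48.6 CPM in hypoxia, with no overlap. With the list term its value was -0.44 (adjusted p = 0.292), and listed libraries were lower by 0.87 on the log2 scale (adjusted p = 0.00222). Epas1, which encodes HIF-2alpha of endothelium, had a log2 fold change of -0.41 without and -0.04 with the term, and Egln3, the hydroxylase that HIF itself induces, 0.52 and 0.92, neither past the test (adjusted p = 0.16 and 0.272).

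Of 43 HIF targets and glycolysis genes, 3 were higher and 2 lower without the list term, smaller shares than over all genes, and the median log2 fold change was 0.10 against 0.03 over all. With the term 2 were higher (1 without male Cav1-KO hypoxia replicate 3), where 0.347% of all genes were. Also with the term, 35 of 43 were positive and the median was 0.26, against 9786 of 19870 and -0.007 over all genes. Off the list the median was 0.24. The summed level of the list was 4428 to 4756 CPM in normoxia and 4915 to 5525 CPM in hypoxia, with no overlap. Adm, the vasodilator adrenomedullin, had 1.55 to 3.64 CPM in normoxia and 5.85, 5.56 and 11.1 CPM in hypoxic females and 4.65, 9.04 and 4.19 CPM in hypoxic males. Ankrd37, another target of HIF, had 1.99 to 2.86 CPM and 4.39 to 11.3 CPM. In both, all hypoxic libraries lay above all normoxic ones at low levels. The rises were 1.31 ± 0.29 for Adm (adjusted p = 0.00191) and 1.39 ± 0.22 for Ankrd37 (adjusted p = 0.000163), with the list term 0.74 (adjusted p = 0.478) and 0.78 (adjusted p = 0.363). Gapdh also rose (1.01; 0.34 with the term), and Pfkfb3 and Pgam1, enzymes of glycolysis, fell by 1.19 and 1.64 without the term and not with it. Vegfa, the main growth factor of vessels, was at 0.18 (adjusted p = 0.0662; -0.18 with the term), and the glucose transporter Slc2a1 at 0.80 (adjusted p = 0.000805) and with the list term 0.59 (adjusted p = 0.217).

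With the list term 2 HIF targets were called, and the libraries of 1 of them, Ndrg1, did not overlap. Ndrg1, a stress gene induced by hypoxia in many cells, had 39 to 44.7 CPM in normoxia and 84.4, 82.4 and 69.6 CPM in hypoxic females and 59.8, 50.1 and 77.5 CPM in hypoxic males. Every hypoxic library was above every normoxic one. It rose by 1.02 ± 0.17 with the term (adjusted p = 0.0031) and had 0.75 without it, 0.72 off the list (adjusted p = 0.00188) and -0.02 for male Cav1-KO minus Control.
Adm, chr7:110627407-110627656, plus strand: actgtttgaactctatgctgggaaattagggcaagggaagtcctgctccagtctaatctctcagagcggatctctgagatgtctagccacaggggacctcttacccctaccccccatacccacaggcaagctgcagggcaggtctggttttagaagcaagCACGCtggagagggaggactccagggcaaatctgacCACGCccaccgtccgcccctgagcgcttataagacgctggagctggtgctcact
Ankrd37, chr8:45999851-46000100, minus strand: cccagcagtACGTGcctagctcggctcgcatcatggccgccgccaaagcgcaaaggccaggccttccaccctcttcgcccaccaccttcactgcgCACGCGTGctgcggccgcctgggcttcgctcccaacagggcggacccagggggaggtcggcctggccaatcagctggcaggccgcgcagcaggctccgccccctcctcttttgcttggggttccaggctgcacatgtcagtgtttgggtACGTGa
The window of Adm held 2 GCGTG and that of Ankrd37 2 ACGTG and 2 GCGTG. Over the list, 39 of 55 windows (70.9%) held a core, and so did all 6 windows of the 5 genes called without the list term, those that fell included.

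Some genes that fell in Cav1-KO differed by nearly as much between listed and other libraries at one oxygen level, although others with as small an adjusted p, such as Emp2 (-2.22 and -1.42), differed by less. Hipk2, a kinase of the stress response, was at 56.9 to 90.3 CPM in normoxia and 8.11 to 11.9 CPM in hypoxia. It fell by 2.99 ± 0.13 (adjusted p = 5.69e-08) without and was at 0.21 ± 0.66 with the list term, and in male Control normoxia, off the list throughout, it varied between 93.9, 16.9 and 24.6 CPM. Timp3, an inhibitor of matrix metalloproteinases in the vessel wall, was at 722 to 1160 CPM in normoxia and 35.9 to 108 CPM in hypoxia. The same pattern held for it (-3.81 ± 0.22 without, -0.34 ± 0.53 with the term, -3.47 in listed libraries), for the growth factor Hgf (-2.94, 0.15 and -3.09), for the copper transporter Atp7a (-2.97, 0.01 and -2.98) and for Bmp5 (-2.29, -0.02 and -2.28). Bmp5 went from 34.5 to 53.6 CPM in normoxia to 4.5 to 11.9 CPM in hypoxia. Off the list, Hipk2 was at 0.08, Timp3 at -0.11, Hgf at -0.36 and Bmp5 at -0.42 on the log2 scale with hypoxia.

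Transcripts that rose in this way included the nuclear RNA Neat1 (1.51 without, -0.38 with the term, 1.89 in listed libraries). Emp2, a membrane protein of alveolar type I cells, was between both patterns. It was at 1480 and 1490 CPM in normoxic females and 1560 to 1700 CPM in normoxic males, and at 308 to 384 CPM in all 6 hypoxic libraries. Its log2 fold change was -2.22 ± 0.08 (adjusted p = 5.69e-08) without and -0.81 ± 0.33 with the term (adjusted p = 0.239), -1.42 in listed libraries and -0.18 off the list. Nos3, the endothelial nitric oxide synthase that caveolin-1 inhibits, was at 39.1 to 46.5 CPM in normoxia. In hypoxia it was at 91.7, 112 and 96.6 CPM in females and at 124, 102 and 94.4 CPM in males. It rose by 1.23 ± 0.08 (adjusted p = 5.44e-07) without the term and was at 0.57 ± 0.16 with it (adjusted p = 0.0734), at 0.65 in listed libraries and at 0.61 off the list (adjusted p = 0.00135), under the fold threshold. Male Control lung had 21.1 to 28.1 CPM in normoxia and 51.4 to 71.5 CPM in hypoxia, with a Cav1-KO minus Control difference of -0.04 ± 0.20.

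Endothelial genes as a list did not move one way. Of 30 tested, 3 were higher (Emcn, Egfl7 and Nos3) and 4 lower (Plvap, Kdr, Calcrl and Ptprb) without the list term, near the 9.18% and 8.46% of all genes, with a median of -0.11. With the term 1 was higher (Emcn) and 1 lower (Plvap), where 0.347% of all genes were called in each direction. The summed level was 8630 to 12300 CPM in hypoxia and 12500 to 13100 CPM in normoxia. Emcn, a sialoprotein of venous and capillary endothelium, had 42 and 71.1 CPM in normoxic females and 57.2 to 61.9 CPM in normoxic males, and 157, 120 and 179 CPM in hypoxic females and 123, 82.2 and 190 CPM in hypoxic males. All hypoxic libraries lay above. It rose by 1.26 ± 0.21 without and by 1.24 ± 0.30 with the term (adjusted p = 0.0398), a call that 15 of 30 alternative settings kept. Kdr, the main VEGF receptor, fell by 1.46 ± 0.10 (adjusted p = 5.87e-07) and was at -0.30 with the term. Pecam1 and Cdh5, which every endothelial cell expresses, were at 0.03 and -0.86 without and 0.50 and -0.07 with it, none of them past both thresholds.

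Of 14 markers of capillary subtypes, 4 were lower without the list term (median -0.45) and 2 with it (median -0.53). Over all genes 9.18% were higher and 8.46% lower without the term, and 0.347% in each direction with it, which also bears on the lists that follow. Fibin, a secreted protein, had 85.1 to 124 CPM in normoxia and 20.8 to 46.2 CPM in hypoxia, a fall of 1.42 ± 0.17 without and 1.31 ± 0.32 with the term (adjusted p = 0.0398; kept by 9 of 30 alternatives). Off the list it fell by 1.87 (adjusted p = 8.27e-06). Of the 18 arterial, venous and lymphatic genes, 3 were lower without the term, and with it 2 were higher (Prox1 and Mmrn1) and 1, Dll4, lower. Dll4, the Notch ligand of arteries and sprouting tips, had 147 to 184 CPM in normoxia and 94.6, 86.4 and 39.9 CPM in hypoxic females and 84.5, 120 and 92 CPM in hypoxic males. The groups do not overlap, and Dll4 fell by 1.02 ± 0.18 without (adjusted p = 0.000446) and by 1.43 ± 0.28 with the term (adjusted p = 0.0111; kept by 26 of 30 alternatives, and lost without female Cav1-KO normoxia replicate 1 at -1.33 or female Control normoxia replicate 1 at -1.44). Among the 17 Notch genes tested, 2 were higher and 3 lower without and 0 were called with the term. Of the 27 angiogenic ligands and receptors, 1 was higher and 4 lower without the term, and with it Cxcl12, a chemokine of vessel wall cells, was higher (1.36, adjusted p = 0.0287; 0.43 without it). That call was kept by 19 of 30 alternatives and lost when any of 7 libraries was left out, among them female Cav1-KO normoxia replicate 1 (1.31).

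Of 32 vasoregulators, 1 was higher (Slc6a4, the serotonin transporter) and 4 lower (Prkg1, Adra1a, Adra1b and Adra1d, the cGMP kinase and 3 alpha-1 adrenoceptors) without the list term, beside 9.18% and 8.46% of all genes, and 1 of 33, Adra1d, was lower with it (-1.43, adjusted p = 0.0488; kept by 7 of 30 alternatives). Prkg1 was among the genes that moved as much in listed libraries (-2.90 without, -0.23 with the term). Slc6a4 rose by 1.23 (adjusted p = 0.0484) and was at 2.02 with the term (adjusted p = 0.193), and it is carried by platelets, whose transcripts are described with those of the blood. Kcna5, the voltage-gated potassium channel of pulmonary artery muscle, was near the floor, at 0.373 to 1.61 CPM in normoxia and 0.127 to 0.494 CPM in hypoxia, which overlap, and fell by 1.57 (adjusted p = 0.00177), with -1.65 (adjusted p = 0.051) with the term.

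Of 44 BMP signaling genes, whose receptor BMPR2 is the gene most often mutated in heritable pulmonary hypertension, 2 were higher and 7 lower without the list term (median -0.48), beside 9.18% and 8.46% of all genes. Those higher were the antagonist Nog and the inhibin subunit Inha, and among those lower were the ligands Bmp5 and Bmp6, the transducer Smad9, the antagonists Fstl3 and Twsg1 and the ubiquitin ligase Smurf2. With the term, 1 of 45 was called, Bmp2, which was higher (1.04 ± 0.26, adjusted p = 0.0488; kept by 7 of 30 alternatives), and the median was -0.07. Bmp6 was at -0.91 off the list (adjusted p = 0.000232), under the fold threshold, while Smad9 and Fstl3 were at 0.05 and 0.20 there. Bmpr2 had a log2 fold change of -0.63 (adjusted p = 0.00161) without and 0.01 with the term. Of 9 genes of heritable risk, 2 were lower without the term, among them Aqp1, a water channel of endothelium (-1.10, adjusted p = 1.07e-05; 0.03 with the term), and 0 were called with it. Tbx4, the lung mesenchyme factor, and the potassium channel Kcnk3 were at -0.71 and -0.72 without and at -0.49 and -0.64 with the term (adjusted p = 0.102 and 0.227). Of the 9 genes of caveolae, Cavin2, the coat protein of endothelial caveolae, fell by 1.60 ± 0.12 (adjusted p = 8.46e-07) and was at -0.33 with the term, and Cavin1 was at 0.21 without and 0.19 with it.

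Matrix genes were lower in hypoxic Cav1-KO lung, and many of them fell by more in male Cav1-KO than in male Control lung. In males all 3 hypoxic Control and all 3 hypoxic Cav1-KO libraries are on the list and 0 of the normoxic ones are, so the list does not separate the genotypes there. The male Control normoxia libraries were not alike: replicates 2 and 3 had airway secretory sums of 56580 and 49900 CPM and matrix sums of 7221 and 8193 CPM, against 26060 and 11090 CPM in replicate 1, and the part of this in the difference was not tested. Over all genes that difference was called for 158 genes higher and 216 lower, 2.03% of 18464 (0.856% higher, 1.17% lower). Leaving out single libraries moved the total to between 32 (without male Cav1-KO normoxia replicate 2) and 1050 (without male Control normoxia replicate 1). Of 40 matrix genes, 1 was higher (Eln) and 19 lower in Cav1-KO hypoxia without the list term (median -0.97), and 1 was lower with it (Col6a2, median -0.49). For 17 the male Cav1-KO minus Control difference of the change was called lower (median -1.14, against 0.04 over all genes). Off the list 0 were called either way, with a median of -0.04. The summed level of the list was 14700 to 16100 CPM in normoxic and 6570 to 9670 CPM in hypoxic Cav1-KO lung.

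Col1a1, a chain of type I collagen, was at 354 ± 25 CPM (SD, n = 3) in male Control normoxia and at 309, 312 and 305 CPM in hypoxia. In male Cav1-KO it was at 655, 593 and 566 CPM in normoxia and at 165, 300 and 133 CPM in hypoxia. Normoxic Cav1-KO lung was thus above Control and hypoxic Cav1-KO lung below it, so that the difference of the 2 changes, -1.43 ± 0.32 (adjusted p = 0.0335), includes both. Col3a1, the type III chain, had 467, 405 and 366 CPM in normoxic and 356, 572 and 367 CPM in hypoxic Control lung, and 1040, 921 and 890 CPM in normoxic and 188, 416 and 172 CPM in hypoxic Cav1-KO lung (difference -1.97 ± 0.42, adjusted p = 0.0295). The same order of the groups was seen for Mmp2, a gelatinase that degrades basement membrane collagen (-1.40, adjusted p = 0.0284), and for Tnc, the matricellular tenascin-C that marks remodeled arteries (-2.23 ± 0.37, adjusted p = 0.0167). Tnc was at 16.5 to 18.8 CPM in normoxic and 18.9 to 31.4 CPM in hypoxic male Control lung and at 29.3 to 48.5 and 8.6 to 16.2 CPM in male Cav1-KO. Male Cav1-KO hypoxia replicate 2 had the highest level of all 4 genes among the 3 hypoxic Cav1-KO males. Elastin (Eln), the exception, rose by 1.32 ± 0.20 (adjusted p = 0.000117), with -0.11 with the list term and 0.72 off the list. The 17 matrix calls in males depended on single libraries: leaving out each in turn gave 1 to 26, with the fewest without male Cav1-KO normoxia replicate 2, while the median kept between -1.27 and -1.03. The calls of Col1a1, Col3a1, Mmp2 and Tnc were kept by 10, 12, 12 and 19 of 22 alternatives. Without the male Control hypoxia library whose sex-linked transcripts go against its label, a choice made after seeing the data, the difference was called lower for 16 matrix genes (median -1.03). It was called either way for 625 genes in all.

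Genes with the smallest adjusted p in the male comparison were not matrix genes alone. Mgp, an inhibitor of calcification made by vessel wall cells, had 920 to 1020 CPM in normoxic and 1410 to 1620 CPM in hypoxic Control lung but 2060 to 2080 CPM in normoxic and 1150 to 1450 CPM in hypoxic Cav1-KO lung, opposite directions with no overlap in either (difference -1.32 ± 0.17, adjusted p = 0.00721). Anxa1, a mediator that ends inflammation, showed the same, at 176 to 210 and 245 to 257 CPM in Control and 309 to 357 and 137 to 196 CPM in Cav1-KO (-1.44 ± 0.18, adjusted p = 0.00721). Gap43, a protein of growing nerve endings, was at 10.5 to 16.5 and 36.2 to 50 CPM in Control and at 17.1 to 17.8 and 15 to 16.5 CPM in Cav1-KO (-1.79 ± 0.22, adjusted p = 0.00721). Sphk1, the kinase that makes sphingosine 1-phosphate, went the other way, at 55.5 to 71.9 and 46.3 to 60.7 CPM in Control and 39.9 to 49.5 and 93.7 to 118 CPM in Cav1-KO (1.44 ± 0.20, adjusted p = 0.00721). For Fgf2, a growth factor of smooth muscle, the difference of the changes was -1.57 (adjusted p = 0.00721). All 22 alternatives kept the calls of Anxa1, Gap43, Sphk1 and Fgf2, and 21 kept that of Mgp. Among the 22, the setting that drops the fold threshold keeps any call by construction. The fit without male Control hypoxia replicate 2 is counted again as that without the library whose sex-linked transcripts go against its label. In female Cav1-KO lung Mgp was at 2120 and 2190 CPM in normoxia and at 1990, 2160 and 1800 CPM in hypoxia, and Anxa1 at 292 and 309 CPM and at 216, 263 and 316 CPM, both with overlap. In female Cav1-KO lung, Sphk1 was at 50.3 and 47.2 CPM in normoxia and at 97.5, 72.6 and 48.6 CPM in hypoxia, which overlap.

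**Figure D3:**
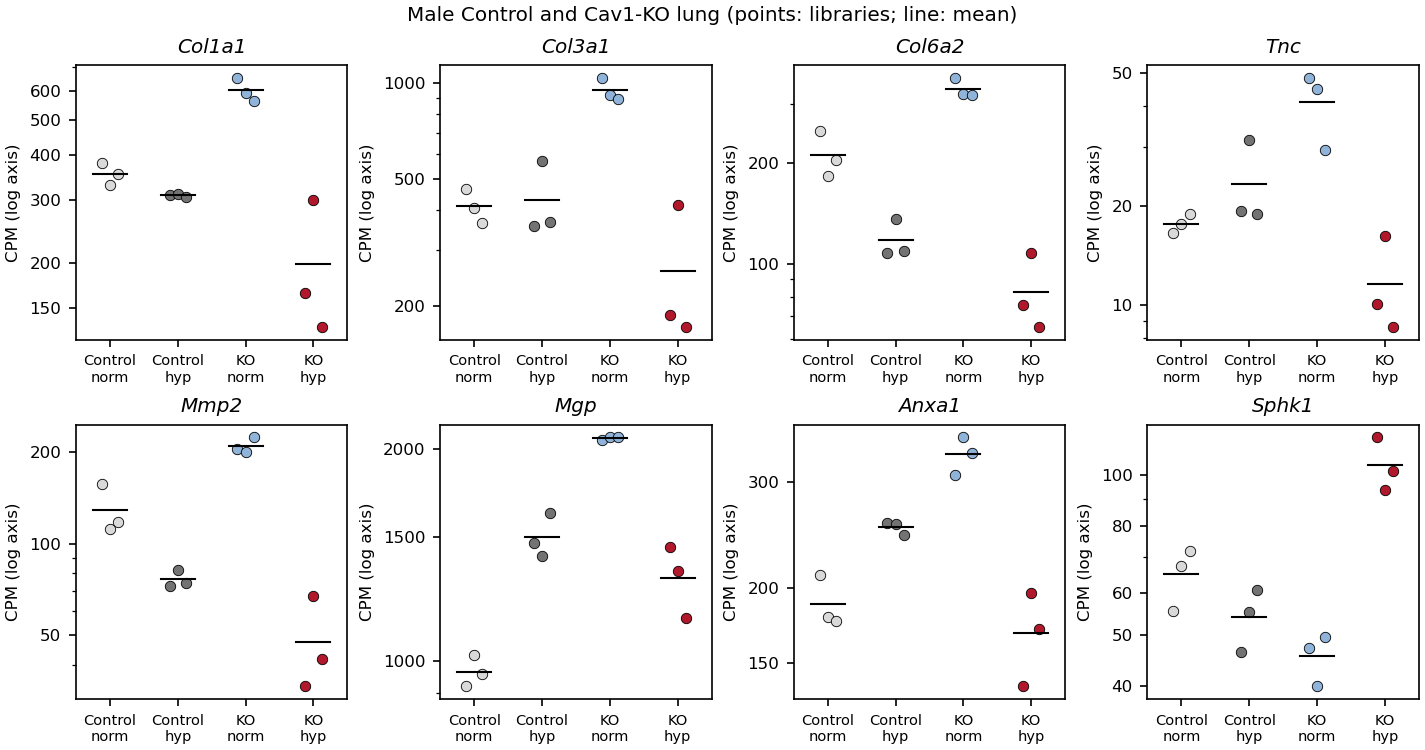
CPM (log axis) of 8 genes in the 12 male Control and male Cav1-KO libraries by oxygen (norm, hyp). Grey points are Control, blue normoxic Cav1-KO and red hypoxic Cav1-KO libraries, and lines are group means. For Col1a1 and Col3a1 the Control groups lie between normoxic Cav1-KO above and most hypoxic Cav1-KO libraries below. For Tnc the hypoxic Control and normoxic Cav1-KO libraries overlap, and Sphk1 is highest in hypoxic Cav1-KO lung.

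Red cell transcripts were high in some hypoxic Cav1-KO lungs and not in others. Of 21 erythroid genes, 14 were higher and 0 lower without the list term (median 1.90), and 5 of 22 were higher with it (median 3.30). For 7 of 16 the male Cav1-KO minus Control difference of the change was called higher (median 3.83), while listed libraries of the female groups were lower in 4 of 13 (median -1.20). Off the list, in the other genotypes, 5 of 22 were higher and 0 lower with hypoxia (median 0.54), beside 0.94% and 1.14% of all genes. In Cav1-KO lung Hbb-bs, an adult beta globin, was at 1010 and 978 CPM in normoxic females and 640 to 1010 CPM in normoxic males. In hypoxia it was at 2380, 2690 and 982 CPM in females and at 8810, 859 and 7820 CPM in males. Female replicate 3 and male replicate 2 lay within the normoxic range, the other 4 far above. Hbb-bs rose by 1.90 ± 0.48 without the term (adjusted p = 0.00461) and was at 3.48 ± 1.01 with it (adjusted p = 0.0848). In male Control lung it was lower in hypoxia, at 347, 96.5 and 85 CPM against 733 to 835 CPM in normoxia, and the difference of the changes was 4.99 ± 0.97 (adjusted p = 0.0228). Globin genes are near-identical copies (Hba-a1 and Hba-a2, Hbb-bs and Hbb-bt) and may share reads. Slc4a1, the anion exchanger of the red cell membrane, was at 0.684 to 1.05 CPM in normoxia and at 6.2, 4.39 and 2.7 CPM in hypoxic females and 61.6, 2.17 and 66.2 CPM in hypoxic males, all above the normoxic range (4.04 ± 0.77 without and 4.76 ± 1.13 with the term, adjusted p = 0.0364; kept by 12 of 30 alternatives). Leaving out single libraries changed the 5 erythroid calls with the term to between 0 and 15, those without it to between 10 and 16, and the 7 of the male difference to between 0 (without male Cav1-KO normoxia replicate 1) and 12.

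Platelet genes followed. Of 11, 10 were higher without the list term (median 2.32), 0 with it (median 1.91) and 3 in listed libraries (median 0.77). Pf4, a chemokine of platelet granules, was at 6.18 to 7.74 CPM in normoxia and at 23.8, 14.4 and 19.7 CPM in hypoxic females and 32.7, 14.5 and 58.6 CPM in hypoxic males, with no overlap (1.92 ± 0.30, adjusted p = 0.000168; with the term 1.14, adjusted p = 0.144). Ppbp, another granule chemokine, was at 2.54 to 4.49 CPM and 6.56 to 103 CPM (3.05 ± 0.65, adjusted p = 0.00154; 2.64 with the term, adjusted p = 0.182). The 2 hypoxic males with the most globin, replicates 1 and 3, also had the highest platelet sums.

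**Figure D4:**
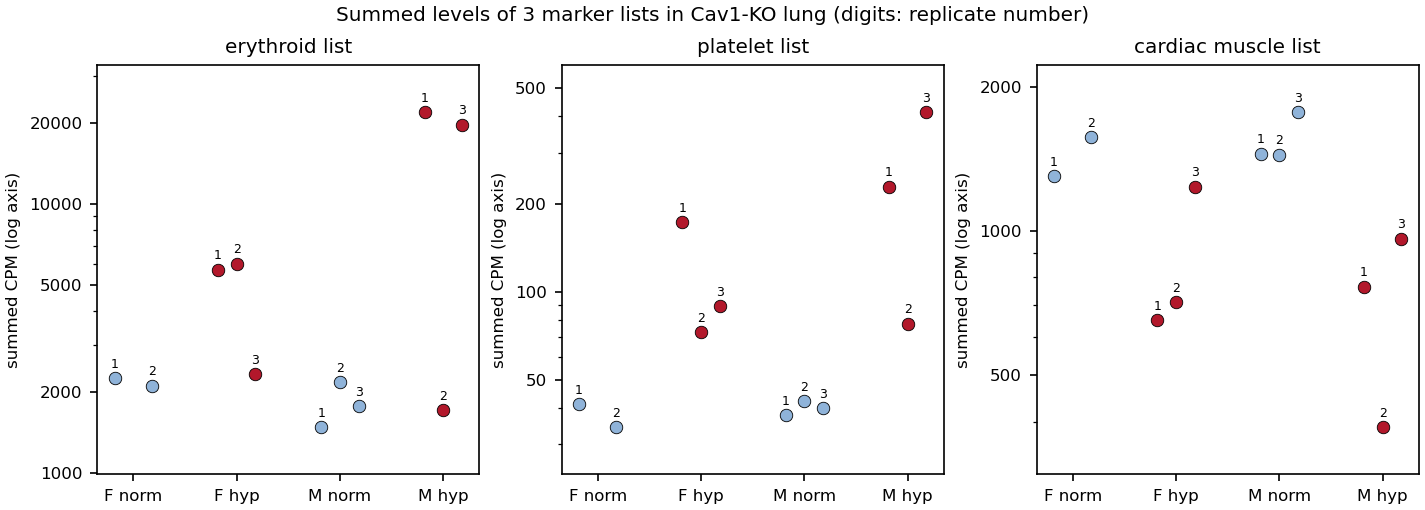
Summed CPM (log axis) of the erythroid, platelet and cardiac muscle lists in the 11 Cav1-KO libraries by sex (F, M) and oxygen (norm, hyp), with the replicate number above each point. Blue is normoxia and red hypoxia. The erythroid sums of hypoxic libraries run from 1720 to 21900 CPM and overlap the normoxic 1490 to 2260 CPM, the platelet sums do not overlap, and the cardiac sums are all lower in hypoxia.

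Some genes of NK and T cells were lower. Of 19 NK cell genes, 6 were lower without the list term (median -0.69) and 5 with it (median -1.30), beside 8.46% and 0.347% of all genes, namely Klre1, Gzma, Klrk1, Klrd1 and Ccl5, while 5 were higher in listed libraries of the female groups (median 0.63). Gzma, a granzyme of killer cells, was at 50 and 27.5 CPM in normoxic females and 20 to 26.2 CPM in normoxic males and at 13.2 to 19.7 CPM in hypoxia, just below. It had -0.95 ± 0.15 without (adjusted p = 0.000201) and fell by 1.60 ± 0.41 with the term (adjusted p = 0.05, just under the threshold). Cd247, the zeta chain of the T cell receptor, which NK cells share, went from 7.01 to 11.7 CPM to 1.34 to 3.37 CPM with no overlap, a fall of 2.16 ± 0.24 without and 1.64 ± 0.31 with the term (adjusted p = 0.00668; lost without female Control normoxia replicate 1, at -1.41), and it was at -0.82 off the list (adjusted p = 0.00686). Off the list 3 of the 19 NK genes were lower and 0 higher with hypoxia, beside 1.14% and 0.94% of all genes. All 19 were negative there (median -0.72). The male Cav1-KO minus Control difference of the change was positive for 17 of 19 NK genes, with 0 called (median 0.73). Of 31 T cell genes, 7 were lower without and 1, Cd247, with the term. The perforin gene Prf1 fell by 1.83 without (adjusted p = 5.16e-05) and was at -0.90 with the term. Female Cav1-KO normoxia replicate 1 stood apart with an NK sum of 250.4 CPM, against 106.5 to 133.8 CPM in the other normoxic Cav1-KO libraries. The summed NK list was at 106 to 250 CPM in normoxia and 70.4 to 102 CPM in hypoxia, and leaving out single libraries lowered the 5 NK calls with the term to between 0 and 4, with medians of -1.40 to -1.01.

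Antibody transcripts were scattered. Of 26 genes of B and plasma cells, 4 were higher and 2 lower without the list term, beside 9.18% and 8.46% of all genes, and 0 with it. Jchain, the joining chain of secreted IgA and IgM, was at 9.07 to 22.9 CPM in normoxia and at 39.1, 78.7 and 623 CPM in hypoxic females and 30.4, 387 and 53.6 CPM in hypoxic males. All hypoxic libraries were above, the 2 with little globin furthest, and its rise of 3.70 ± 0.89 (adjusted p = 0.00339) was not called with the term (3.99 ± 1.64, adjusted p = 0.239). In male Control lung the range was wider still, 215 to 1610 CPM in normoxia. Female replicate 3 also had the highest Reg3g, an antibacterial lectin of airway epithelium (2.47 ± 0.85, adjusted p = 0.0242; 1.59 with the term). Of 30 interferon response genes, 3 were higher without, a share near that of all genes, and 1 with the term, Rsad2, the antiviral viperin (3.53 ± 0.72, adjusted p = 0.0137; lost without female Control normoxia replicate 1, at 3.16). Its level was 2.64 to 3.71 CPM in normoxia and 8.94 to 13.5 CPM in hypoxic females, but 88, 4.39 and 68.9 CPM in hypoxic males, so most of the rise came from 2 animals. Macrophage genes (1 higher and 4 lower of 25), neutrophil genes (5 and 1 of 21) and MHC class II genes (0 and 2 of 11) were called without the term, where 9.18% of all genes were higher and 8.46% lower, and with it 1 gene of MHC class II and 0 of the other 2 lists were called.

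Transcripts of motile cilia were higher in every hypoxic Cav1-KO library. Of 93 genes of motile cilia, 51 were higher and 1 lower without the list term (median 1.09), 0 were called with it (median 0.37) and 23 were higher in listed libraries of the female groups (median 0.73). For 5 the male Cav1-KO minus Control difference of the change was called higher (median 0.63). The summed level was 2150 to 2480 CPM in normoxia and 3340 to 4890 CPM in hypoxia. Dynlrb2, a dynein light chain of the axoneme, was at 14.4 to 17.3 CPM in normoxia and at 52.5, 43.8 and 61.2 CPM in hypoxic females and 52.7, 43.6 and 47.8 CPM in hypoxic males. The hypoxic libraries were tightly grouped and far above (1.68 ± 0.10, adjusted p = 1.99e-07), the value with the term was 0.46 (adjusted p = 0.404), and listed libraries were higher by 1.22. Male Control lung was at 25.2 to 45.6 CPM in normoxia, above normoxic Cav1-KO, and at 52.1 to 63.8 CPM in hypoxia. Foxj1, the master factor of motile cilia, rose by 1.23 ± 0.15 (adjusted p = 2.78e-05) and was at 0.67 (adjusted p = 0.248) with the term. Of 17 airway secretory genes, 8 were higher without the term, 0 with it and 4 in listed libraries, beside 9.18%, 0.347% and 6.4% of all genes. Leaving out single libraries moved the median without the term from 1.17 to between 0.41 and 1.26. In females 6 were higher and 0 lower, whereas in males 6 were higher and 4 lower, the basal cell keratin Krt5 (-4.43), Bpifa1 (-2.28), Bpifb1 (-1.83) and Agr2 (-1.71). None of the 17 passed the test of a difference between the sexes. Of the genes that rose in both sexes together, Reg3g and Scgb3a1 overlapped between hypoxic and normoxic libraries. Scgb1a1 rose by 1.68 ± 0.14 (adjusted p = 1.69e-06), with 0.45 with the term and 1.22 in listed libraries.

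Some alveolar genes were lower. Of 13 alveolar type I genes 3 and of 14 type II genes 5 were lower without the list term (medians -0.54 and -0.58), 0 with it (medians -0.12 and -0.10), and 3 and 4 in listed libraries. The defining markers Ager and Sftpc were at -0.13 and 0.04, neither past the test, while Slc34a2, the phosphate transporter of type II cells, and Abca3, their lipid transporter, fell by 2.06 and 1.40 without the term and were at -0.42 and -0.02 with it.

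All 13 mitochondrially encoded oxidative phosphorylation genes rose without the list term (median 1.35), 0 were called with it (median 0.35) and 9 were higher in listed libraries (median 1.12). mt-Nd4, a subunit of complex I, was at 1580 to 1960 CPM in normoxia and 3660 to 4600 CPM in hypoxia. The male Cav1-KO minus Control difference was -0.01 ± 0.25, and off the list the change was -0.18. Of 76 nuclear genes of the same complexes 5 were higher without the term (median 0.57), and of 81 ribosomal protein genes 7 were higher and 1 lower (median 0.38; -0.11 with the term), both shares under the 9.18% of all genes called higher. Of other lists of the cell interior, read against 9.18% higher and 8.46% lower over all genes, 9 of 22 histone genes were higher and 1 lower (median 0.90), 3 of 8 nuclear-retained RNAs higher, 3 of 20 heat shock chaperones higher, 3 of 20 clock genes higher and 2 lower, 1 of 30 immediate early genes higher and 1 lower, and 2 of 48 cell cycle genes higher and 6 lower. With the term 1 gene of these lists was called, Klf4, an immediate early gene and endothelial factor, which was higher (adjusted p = 0.0111) and was at 0.66 ± 0.14 on the log2 scale without it.

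Cardiac muscle transcripts, which the muscle sleeve of mouse pulmonary veins also makes, gave opposite signs by fit. Of 41 genes, 19 were lower in hypoxic Cav1-KO lung without the list term (median -0.99). With it, 6 of 43 were higher (median 1.22), and listed libraries of the female groups were lower for 36 of 42 (median -2.14). Leaving out single libraries gave 1 (without male Cav1-KO normoxia replicate 1) to 17 higher with the term, with medians of 0.87 to 1.58. Myh6, the atrial myosin heavy chain, was at 342 and 462 CPM in normoxic females and 416 to 519 CPM in normoxic males and at 88, 125 and 172 CPM in hypoxic females and 118, 56.1 and 154 CPM in hypoxic males. The hypoxic libraries were all lower. Male Control lung had 349, 677 and 764 CPM in normoxia and 34.9, 78.1 and 49.1 CPM in hypoxia, and the difference between genotypes was 1.39 ± 0.53 (adjusted p = 0.144). Myh6 was at -1.87 ± 0.24 without and 1.26 ± 0.41 with the term, and off the list at 0.02. Myom2, a protein of the sarcomere, was called in opposite directions (-1.34, adjusted p = 0.00569 without; 2.73, adjusted p = 0.00766 with). Off the list 1 gene of the cardiac list was called, and the median was 0.10.

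**Figure D5:**
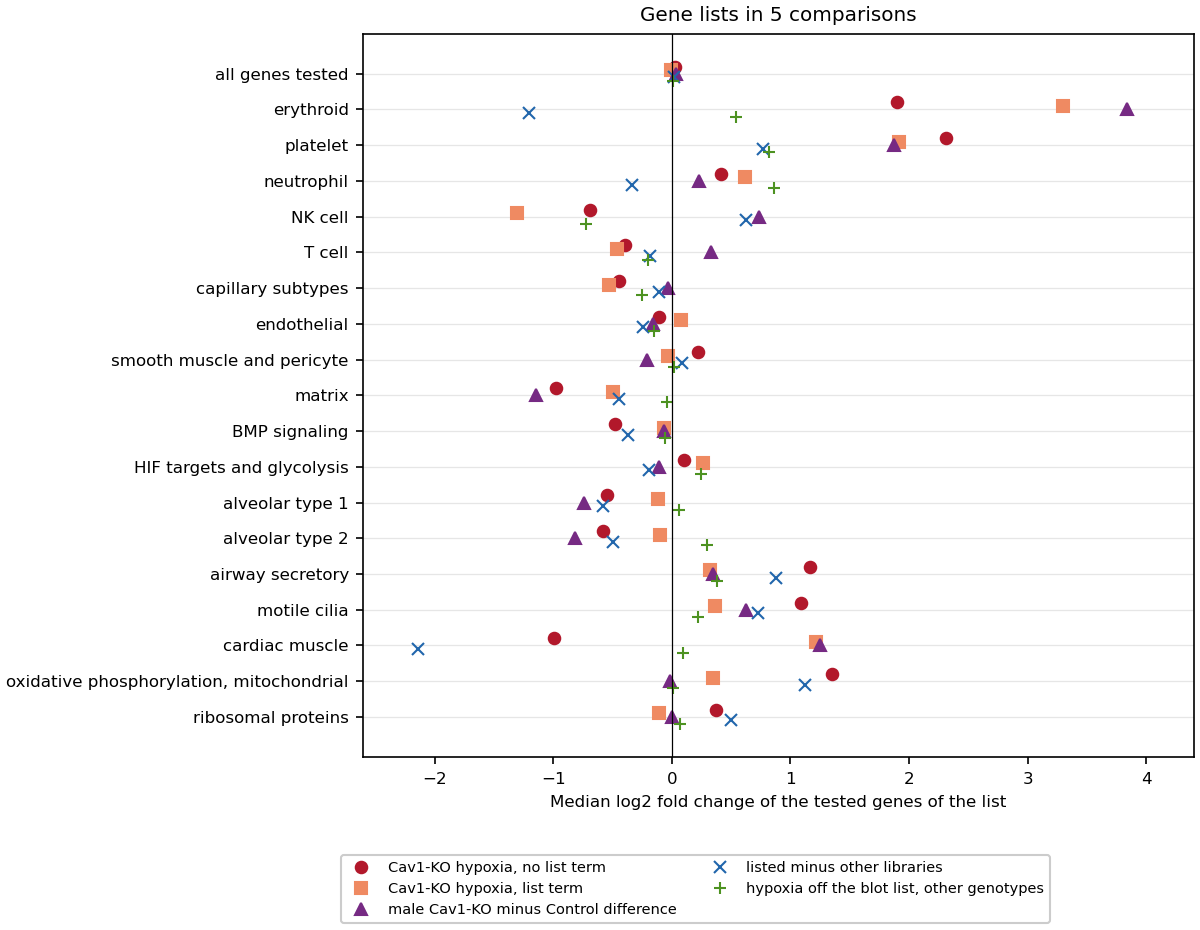
Median log2 fold change of the tested genes of 18 lists and of all genes in 5 comparisons, 1 row per list. Red circles are hypoxia in Cav1-KO without the list term, orange squares the same with it, purple triangles the male Cav1-KO minus Control difference, blue crosses listed minus other libraries, and green plus signs hypoxia in libraries off the list of other genotypes. For cilia, airway secretory and mitochondrial genes the red and blue symbols lie together on the right, for erythroid and cardiac genes they lie apart, and the NK list is on the left in both fits of Cav1-KO.

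The sexes were also fitted apart. In females 1114 genes were higher and 1239 lower (13.3% of 17708 tested, 6.29% and 7%), in males 1513 and 1552 (17.7% of 17297, 8.75% and 8.97%). The 2 sexes share no library. Of the 17066 genes tested in both, 1608 were called in the same direction, 71.8% of the 2240 female and 54% of the 2978 male calls, and 0 in opposite directions, with a Pearson correlation of 0.845 across genes. All hypoxic libraries of both sexes are on the list. The female minus male difference was called for 0 genes with edgeR's quasi-likelihood test (1450 at an unadjusted p under 0.05, smallest adjusted p 0.176) and for 15 with DESeq2. Rgs5, with 161 to 239 CPM in hypoxic females and 66 to 110 CPM in hypoxic males, was among the genes that differed in level and not in a called change.

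For counts by list in each sex, the shares over all genes differ too: 6.29% were higher and 7% lower in females and 8.75% and 8.97% in males. Of the matrix genes 2 were higher and 11 lower in females and 1 and 25 in males, of the cardiac genes 0 and 11 and 0 and 25 were called, and of the cilia genes 56 and 0 and 45 and 1. Of the erythroid genes 5 of 16 were higher and 1 lower in females and 12 of 15 higher in males. Of the NK genes 10 were lower in females and 4 lower and 1 higher in males. Without female Cav1-KO normoxia replicate 1 the NK count in females was 2 and the erythroid count 0, and without female Cav1-KO normoxia replicate 2 the cardiac count was 3. Of the macrophage genes 10 were lower and 1 higher in females and 0 were called in males, where the normoxic sums, 1480 and 1810 CPM in females and 686 to 1090 CPM in males, already differed. With all 11 libraries the test of the difference between the sexes called 0 genes of the lists, and leaving out single libraries gave at most 6 erythroid genes and 1 gene each of the interferon and nuclear-retained lists. Without the filter on low counts 261 genes were called over all.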

How the data were processed

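RNA of whole lungs was extracted with TRIzol, enriched for poly-A transcripts and made into directional libraries. The authors mapped the reads to mm10 with HISAT2 2.0.5 and counted with featureCounts 1.5.0-p3 at default parameters, and they deposited raw read counts for 54532 genes in 35 libraries and the FPKM values of the same genes. No strand setting is given in the sources used here, so overlapping and antisense genes may share reads.

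Counts were fitted in R 4.3.3 with edgeR 4.0.16 (TMM, filterByExpr on the groups fitted, glmQLFit and glmQLFTest), with Benjamini-Hochberg adjustment over all genes tested. Standard errors were derived from the F statistics, as the log2 change over the root of F. Hypoxia in Cav1-KO was the mean of the female and male differences over 11 libraries with no covariate. Beside it stand a fit of all 34 grouped libraries with the list term, the male Cav1-KO minus Control difference (12 libraries), listed minus other libraries within 3 female groups (8) and hypoxia off the list (14). CPM values use TMM factors over the 34 libraries. Groups follow the labels, and 1 library of uncertain group was left out. P-values measure only the spread between these samples. Replicates differed by more than counting error, so none was counted as a duplicate. The precision is limited by 2 or 3 animals per group, and floors of 3 counts cover counting error only.

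The members, the 40 gene lists and the tests were chosen with earlier results of these data known, and no list was tested as a set. Named genes are the 12 protein-coding genes ranked first by adjusted p in each direction, provided they were called and the hypoxic and normoxic libraries were fully apart, up to 8 in each direction for the list term (the same condition) and for the male difference, the anchor genes of each list with up to 4 further called ones, Cav1 and genes the study names. Cavin1, Ndrg1, Emcn, Slc6a4, Ppbp, Col6a2, Tnc, Cxcl12, Klf4, Bmp2, Ccl5, Hbb-bt and Mb were among the genes chosen after their values were seen. Results of 2 genes are not reported here.

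Alternatives were DESeq2 1.42.0 (size factors and Wald test), no filter, protein-coding genes only, adjusted p alone, limma 3.58.1 on log2(FPKM + 1) and log2(FPKM + 0.1) of the deposited values with a filter at a mean FPKM of 0.1, the first also without it, a replicate block, female libraries only and single libraries left out. Adjusted p alone drops the fold threshold of the same fit, so it keeps every call by construction. The edgeR fits, except that of the difference between the sexes, were tested on simulated counts first, and the other steps were not. Animal numbers for the list come from the supplement of the study. Survival, hemodynamics, blots and qPCR were not analysed here.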

Additional observations from a re-analysis of the deposited data

Results flagged for a closer look

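Among the summed levels of the 40 lists in the hypoxic and the normoxic Cav1-KO libraries, 80 groups were searched for 1 library far from the others by Dixon's criterion, which marks about 1 group in 20 by chance, and 6 were marked. The HIF pathway sum was 3194 CPM in female Cav1-KO normoxia replicate 2 against 3639 to 3730 CPM in the other normoxic libraries. Female Cav1-KO normoxia replicate 1 stood apart in 2 lists, with an NK cell sum of 250.4 CPM against 106.5 to 133.8 CPM and an interferon response sum of 998.7 CPM against 834.3 to 866.8 CPM. In hypoxia, male replicate 1 had an interferon sum of 2342 CPM against 913.3 to 1012 CPM, female replicate 2 a cell cycle sum of 603.5 CPM, with the lowest at 352.4 CPM and a gap to the next highest of 0.715 of the whole range, and female replicate 3 a liver gene sum of 19.32 CPM against 4.766 to 7.864 CPM.

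The response to hypoxia differed between male Cav1-KO and male Control lung for 374 genes by edgeR's quasi-likelihood test of the difference, 158 higher and 216 lower in Cav1-KO. Protein-coding genes among those with the smallest adjusted p are named here. The higher ones included 2310034G01Rik (1.62), Sphk1 (1.44), Tent5c (1.94), Angptl4 (2.20), Nek2 (1.16), A3galt2 (2.70), Slc22a12 (3.55) and Pglyrp1 (2.00). The lower ones included Gap43 (-1.79), Lingo1 (-1.90), Mgp (-1.32), Anxa1 (-1.44), Unc5c (-2.21), Wisp1 (-2.15), Upk1b (-1.06) and Heyl (-1.20). Each value is a difference of log2 fold changes. Fgf2, described above, was also among the lower ones with the smallest adjusted p. Slc22a12 was near the floor of 3 counts (0.11 to 0.209 CPM in Cav1-KO libraries). With TMM factors over 35 libraries it was at 0.248 to 0.774 CPM in normoxic and 0.0834 to 1.38 CPM in hypoxic Cav1-KO lung. A3galt2 was at 0.496 to 2.12 and 1.21 to 4.72 CPM. Both sexes are included, and the ranges of both genes overlapped.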

How the results depend on the processing

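The counts of called genes depended on the settings. Adjusted p alone gave 11409 genes for hypoxia in Cav1-KO, 6769 in females, 9529 in males, 242 with the list term, 701 for the male difference, 7190 for listed against other libraries and 1520 off the list. Limma on log2(FPKM + 1) gave 1137, 1060, 1325, 51, 117, 897 and 94 in that order, without the filter 1112, 952, 1263, 41, 44, 819 and 77, and 1 gene for the difference between the sexes in each; with log2(FPKM + 0.1) it gave 81 with the list term and 153 for the male difference. Without a filter on low counts 261 genes were called for the sex difference, 447 with the list term, 849 for the male difference and 774 off the list. The Wald test of DESeq2 called 15, 300 and 729 for the first 3 of these. Protein-coding genes alone gave 239 off the list, and female libraries alone 21 with the list term.

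Leaving out single libraries in turn (for the list term, the 11 of Cav1-KO and the 8 behind the term) gave 2968 to 3432 genes for Cav1-KO, 1223 (without female Cav1-KO normoxia replicate 1) to 2327 in females, 2716 to 3757 in males, 0 to 18 (without male Cav1-KO hypoxia replicate 2) for the sex difference, 36 (without female Control normoxia replicate 1) to 252 (without male Cav1-KO hypoxia replicate 2) with the list term, 32 (without male Cav1-KO normoxia replicate 2) to 1050 (without male Control normoxia replicate 1) for the male difference, 1669 to 2668 for the list and 220 to 727 off it. The fit off the list could not be fitted without female Cav1-RC normoxia replicate 2, its only library of that group. Leaving out libraries whose Xist and Y chromosome transcripts go against the label, an alternative chosen after seeing the data, gave 3292 genes for Cav1-KO, 103 with the list term, 625 for the male difference and 152 off the list.

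A replicate block gave 59 genes with the list term, 3168, 2339 and 3037 for Cav1-KO, its females and its males, 0 for the sex difference, 261 for the male difference and 396 off the list. Libraries with the same number did not deviate together (correlations 0.162 and -0.109 in females and 0.00297 to 0.0346 in males), so the numbers do not pair the animals. Of the named genes, 1 reversed: Cfd in females, at 0.94 (adjusted p = 0.54), was at -1.41 with the replicate block (adjusted p = 0.000137) and between -1.34 (without female Cav1-KO hypoxia replicate 3) and 1.46 when each library was left out in turn. Over named genes and settings, 6879 of 7237 values for Cav1-KO and 9010 of 9471 with the list term kept their direction and their side of the threshold. The causes were not tested. Depth limits genes near the floor, and the list term rests on 3 listed libraries.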

Other observations

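The library whose group the labels leave uncertain, possibly a normoxic Cav1-KO female, was used in no comparison, and its values are given beside the ranges of the 5 normoxic and 6 hypoxic Cav1-KO libraries. Its animal number is on the blot list, which enters that animal as a normoxic female Cav1-KO. All values below except Cav1, Hbb-bs and the erythroid sum lie within the hypoxic range, and those 3 lie above both ranges. Cav1 was at 4.82 CPM (normoxic 1.6 to 3.6, hypoxic 1.7 to 3.99). Plvap was at 50.9 CPM (528 to 657 and 43.5 to 157), Ednrb at 35.7 CPM (92.6 to 120 and 27.2 to 51.8) and Hipk2 at 8.35 CPM (56.7 to 90.1 and 8.09 to 11.9). Rgs5 was at 175 CPM (10.4 to 25.2 and 65.9 to 238), Slc26a10 at 193 CPM (2.47 to 7.04 and 43.6 to 201), Ntrk2 at 216 CPM (27.7 to 44.5 and 128 to 268), Cdk19 at 616 CPM (126 to 156 and 335 to 629) and Hbb-bs at 13000 CPM (639 to 1010 and 856 to 8790). The summed erythroid list was at 30900 CPM (1480 to 2250 and 1710 to 21800). CPM values of this comparison use TMM factors over 35 libraries.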
